A study of Homo sapiens with 8 samples.

Results

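The miRNAs described here come from the imprinted DLK1-MEG3 region of chromosome 14 and were measured in HCT116 cells, an established human colorectal cancer line, with and without the gut bacterium enterotoxigenic Bacteroides fragilis (ETBF). They were 8 in number, picked by name, as the rows hsa-miR-379-5p, hsa-miR-411-5p, hsa-miR-323a-3p, hsa-miR-494-3p, hsa-miR-543, hsa-miR-495-3p, hsa-miR-409-3p and hsa-miR-127-3p, and make up 8 of the 2575 miRNA names counted. In the treated group, 4 libraries, HCT116 cells shared their wells with ETBF for 6 hours at 500 bacteria per cell (the multiplicity of infection). In the control group, also 4 libraries, titled untreated, the cells received bacterial medium with no ETBF. Both groups are cultures of this 1 line at passage 16-19, with no genetic change named in the labels, so they do not speak for normal colon epithelium or other lines. The labels do not say whether replicates were separate cultures, and the p-values then measure only the spread between these libraries, which may be technical.

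In the DLK1-MEG3 region each imprinted gene is read from 1 parental chromosome only. The paternal copy makes the proteins DLK1 and RTL1, and the maternal copy makes long noncoding RNAs such as MEG3, MEG8 and MEG9 together with a large array of miRNAs that are thought to be cut from long maternal transcripts. A mature miRNA pairs with messenger RNAs mainly through its seed, bases 2 to 8 from its 5′ end, and lowers their output. In adults the array is known for its high level in brain, and in tumours it has been described as silenced or raised depending on the type.

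The mature sequences of all 8 were found in RefSeq (GRCh38.p14), each from 1 hairpin. They are shown 5′ to 3′ with the seed in capitals, because the seeds set which miRNAs could stand in for each other and the remaining bases set which reads could be confused.
miR-127-3p: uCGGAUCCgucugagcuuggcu
miR-379-5p: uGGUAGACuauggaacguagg
miR-411-5p: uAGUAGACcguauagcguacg
miR-323a-3p: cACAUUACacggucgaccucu
miR-494-3p: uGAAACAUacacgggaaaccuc
miR-543: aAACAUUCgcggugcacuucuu
miR-495-3p: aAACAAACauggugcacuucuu
miR-409-3p: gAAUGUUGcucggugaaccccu

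The 8 seeds were all different. The nearest pair by seed was miR-379-5p and miR-411-5p, whose seeds differ by 1 base and share the run GUAGAC, although the whole molecules are 7 edits apart (an edit being 1 base changed, added or removed). The nearest pair over the whole molecule was miR-543 and miR-495-3p. These end in the same 12 bases, GGUGCACUUCUU, and are 4 edits apart in all, with 2 edits between their seeds. MiR-323a-3p is 3 edits from miR-323b-3p, a further product of the array with 49 counts over the 8 libraries, so some exchange of reads between these names cannot be told from the counts. For miR-409-3p the nearest mature sequences, miR-429 and the array's own miR-656-3p, are 8 edits away. Outside the region only 2 RefSeq names have the seed of a member: miR-3529-5p, with the seed of miR-379-5p, had 1 count in ETBF replicate 1 and 1 in control replicate 4, and miR-5688, with that of miR-495-3p, had 0 in all 8 libraries. GC content ran from 36.4% in miR-495-3p to 59.1% in miR-127-3p.

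The hairpins lie on the plus strand of chromosome 14 over 182400 bp (RefSeq positions, GRCh38.p14; the counts were made on GRCh37.p5). MIR127 is the first, at chr14:100882979-100883075, opposite an exon of the retrotransposon-derived gene RTL1 and within an intron of the noncoding gene AL117190.1 (GENCODE 29). The next begins 138990 bp further on. MIR379 (chr14:101022066-101022132), MIR411 (chr14:101023325-101023420), MIR323A (chr14:101025732-101025817), MIR494 (chr14:101029634-101029714), MIR543 (chr14:101031987-101032064) and MIR495 (chr14:101033755-101033836) follow each other in introns of MEG8. MIR409 (chr14:101065300-101065378) stands 31463 bp beyond MIR495, in an intron of MEG9, and MIR369 follows it after 219 bp.

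All libraries together held 556 counts of the 8 miRNAs with ETBF and 1038 in controls, from library totals of 2591655 to 4706156 and 5274167 to 6522542 counts. The lower totals of the ETBF libraries put their counts nearer to the floor, set here at 3 counts, since a count of 0 allows up to that many by counting error. That floor equals 0.645 to 1.12 CPM (each library's counts scaled by its total and edgeR's TMM factor) in the ETBF libraries and 0.447 to 0.597 CPM in the controls. Of the 8, 7 passed edgeR's expression filter at a minimum count of 10 and were tested together with the other names that passed. Over all 480 tested, 95 rose and 70 fell with ETBF (edgeR quasi-likelihood test, Benjamini-Hochberg adjusted p under 0.05), so that 42.4% of the calls were falls, against 55.6% with upper-quartile scaling. Epithelial miRNAs were abundant, since 9 markers such as miR-200c-3p summed to 23983 to 30124 CPM over the 8 libraries. The list was uneven, from miR-215-5p (means of 1.84 CPM with ETBF and 2.17 in controls) to miR-200c-3p (10960.5 and 13640.1 CPM). Bulk RNA cannot tell fewer cells that make a miRNA from less of it per cell.

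**Figure D1:**
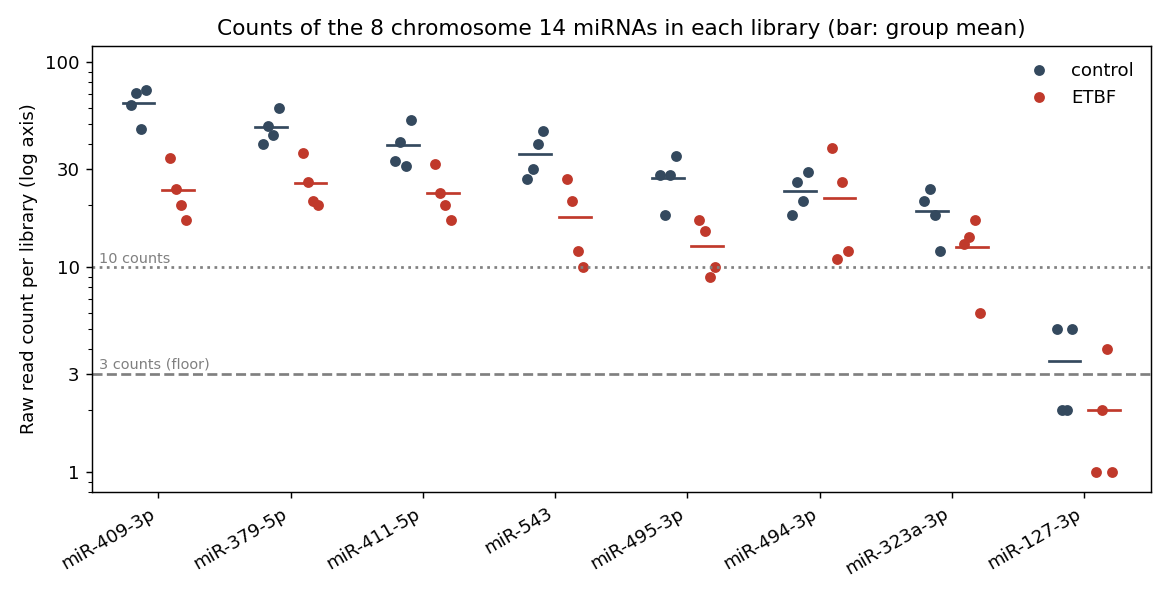
Raw read counts (log axis) of the 8 miRNAs, 1 point per library and a bar at each group's mean, with dashed lines at 3 and 10 counts. MiR-127-3p straddles the floor in both groups, the other 7 lie above 3 counts in all 8 libraries, and the ETBF counts are also lowered by smaller library totals.

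MiR-409-3p fell with ETBF and was the 1 member past the threshold. It has been described as a brake on invasion in colorectal cancer cells. It was read 34, 24, 20 and 17 times in ETBF replicates 1 to 4, and 62, 71, 47 and 73 in control replicates 1 to 4. On the CPM scale it was at 7.31, 5.64, 5.14 and 6.36 with ETBF and at 12.3, 12.5, 8.93 and 10.9 in controls. All 4 ETBF libraries lay below all 4 controls, and the nearest were ETBF replicate 1 and control replicate 3. The means were 6.11 ± 0.942 and 11.2 ± 1.65 CPM (SD, n = 4 each), 1.83-fold lower with ETBF, with a log2 fold change of -0.86 (SE 0.19, 95% interval -1.26 to -0.46, edgeR adjusted p = 0.00177 over all 480). Its mean count stood at 7.92 times the floor with ETBF and 21.1 times in controls, so this fall was read well above it. Falls made up 14.6% of all tested names and rises 19.8%. Among the 194 tested names with a mean under 50 counts, where all 7 tested members lie, 8 fell and 24 rose. With 1 fall and 0 rises among 7 tested members, the share of falls is near that of all 480 tested names. A single call is no result about the members as a set.

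The other arm of the same hairpin had like levels in both groups. MiR-409-5p, below the filter, gave 5, 7, 7 and 7 reads after ETBF and 12, 11, 7 and 8 in control cells. That is 1.78 ± 0.638 CPM and 1.71 ± 0.554 CPM (SD, n = 4 each). The ratio of summed counts, scaled by library totals and TMM factors, was 1.00. Its 95% exact interval of 0.584 to 1.69 covers counting error only. For miR-409-3p the same scaled ratio was 0.550, from 0.430 to 0.699. Whether the 2 arms differ in response was not tested.

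MiR-379-5p, from the head of the MEG8 group, was the second member whose groups did not overlap. The ETBF libraries gave 36, 26, 21 and 20 counts and the controls 40, 49, 44 and 60, or 7.74, 6.11, 5.39 and 7.49 CPM against 7.95, 8.63, 8.36 and 8.95 CPM. The groups were closest at ETBF replicate 1 and control replicate 1, whose gap is about the value of 1 count (0.215 and 0.199 CPM in these libraries). The means were 6.68 ± 1.12 and 8.47 ± 0.421 CPM (SD, n = 4 each), and the log2 difference of -0.35 (SE 0.18, 95% interval -0.74 to 0.04) did not pass (edgeR adjusted p = 0.154). So 2 of the 7 tested members had ETBF values wholly below the controls, where 15.6% of all tested names did. Among the 194 tested names with a mean under 50 counts, 12 did.

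MiR-411-5p, its neighbour with the closest seed, overlapped between groups. The ETBF libraries held 32, 23, 20 and 17 counts of it and the controls 33, 41, 31 and 52. Levels were 5.95 ± 0.814 and 6.86 ± 0.807 CPM (SD, n = 4 each), with a log2 difference of -0.21 (SE 0.20, 95% interval -0.63 to 0.21, edgeR adjusted p = 0.445). In a single random draw that thinned every library to the lowest total, the difference of miR-411-5p was 0.14 (edgeR adjusted p = 0.762). The other 17 alternative fits kept it below 0.

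MiR-543 and miR-495-3p, the pair with the common 3′ end, had similar values to each other. MiR-495-3p is known in neurons as a repressor of the growth factor BDNF. MiR-543 had 27, 21, 12 and 10 counts with ETBF and 27, 30, 40 and 46 in controls. MiR-495-3p had 17, 15, 9 and 10 counts with ETBF and 28, 18, 28 and 35 in controls. In both, the groups overlapped through 1 library: ETBF replicate 1 of miR-543 (5.80 CPM) lay above control replicates 1 and 2 (5.37 and 5.28 CPM), and control replicate 2 of miR-495-3p (3.17 CPM) lay below ETBF replicates 1, 2 and 4 (3.65, 3.52 and 3.74 CPM). MiR-543 averaged 4.39 ± 1.21 and 6.28 ± 1.14 CPM (ETBF and control, SD, n = 4 each), a log2 difference of -0.49 (SE 0.24, 95% interval -1.0 to 0.03, edgeR adjusted p = 0.137). MiR-495-3p was at 3.31 ± 0.670 and 4.82 ± 1.11 CPM (SD, n = 4 each), a log2 difference of -0.54 (SE 0.27, 95% interval -1.12 to 0.04, edgeR adjusted p = 0.139). Neither passed, and neither interval leaves out a fall as large as that of miR-409-3p. The same single draw of thinning to the lowest total left -0.10 for miR-543 (edgeR adjusted p = 0.81).

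MiR-494-3p was the 1 tested member with a positive estimate. Counts were 38, 11, 26 and 12 in the ETBF libraries, against 18, 26, 21 and 29 in the controls. ETBF replicates 1 and 3, at 8.17 and 6.68 CPM, were above all controls, which lay between 3.58 and 4.58 CPM, while ETBF replicate 2 at 2.58 CPM was below all of them. The means were 5.48 ± 2.45 and 4.12 ± 0.433 CPM (SD, n = 4 each), with a log2 difference of 0.43 (SE 0.30, 95% interval -0.20 to 1.06, edgeR adjusted p = 0.299). Leaving out ETBF replicate 1 gave 0.12 (adjusted p = 0.806) and leaving out ETBF replicate 2 gave 0.66 (adjusted p = 0.0671), so single ETBF libraries set its size.

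MiR-323a-3p showed no direction. The ETBF libraries held 13, 14, 17 and 6 counts, the controls 21, 24, 18 and 12. At 3.17 ± 0.902 and 3.40 ± 1.14 CPM (SD, n = 4 each) the log2 difference was -0.05 (SE 0.33, 95% interval -0.75 to 0.64, edgeR adjusted p = 0.917). Its sign turned in 6 of 18 alternative fits. The count of 6 in ETBF replicate 4 was the lowest of any tested member.

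MiR-127-3p, whose hairpin faces RTL1 and which is known as a repressor of BCL6, was at the floor. It had 1, 2, 4 and 1 counts with ETBF and 5, 2, 2 and 5 in controls, and 5 of its 8 values were at or under 3 counts. It was not tested after the filter. The means were 0.522 ± 0.353 and 0.618 ± 0.308 CPM (SD, n = 4 each). The ratio of summed counts, scaled by library totals and TMM factors, was 0.837. Its 95% exact interval for counting error was 0.304 to 2.14. A change of that size in either direction was not detectable at this depth.

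**Figure D2:**
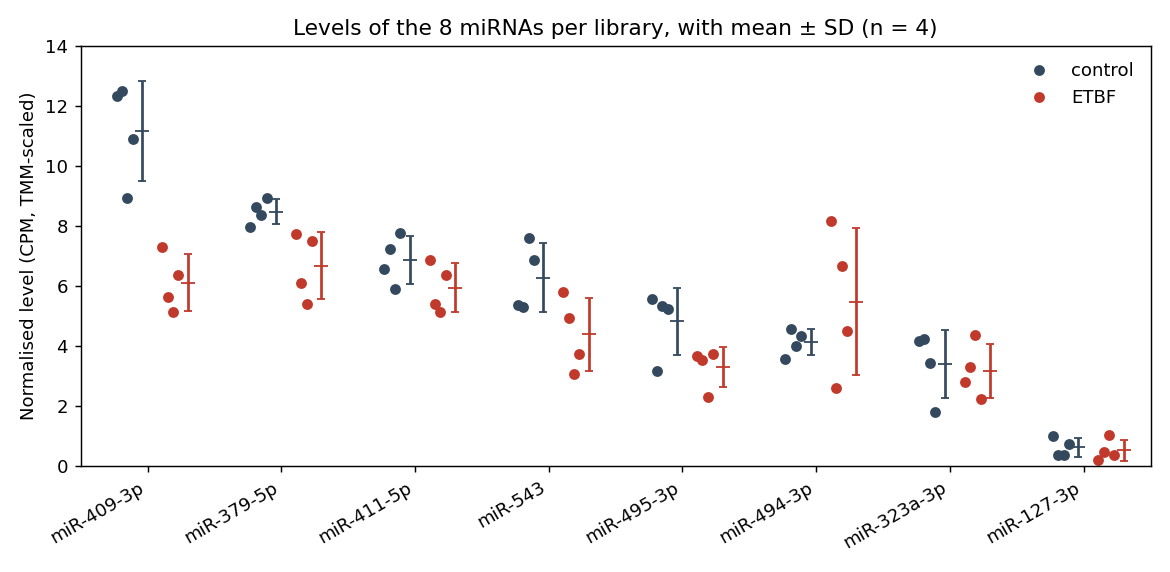
CPM with TMM scaling for each of the 8 miRNAs, 1 point per library, with the mean and SD of 4 libraries beside each group. The ETBF points of miR-409-3p (5.14 to 7.31 CPM) lie below its controls (8.93 to 12.5 CPM), while miR-494-3p spreads from 2.58 to 8.17 CPM with ETBF.

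The order of the members' levels is given on the CPM scale, which needs no length scaling here because all 8 are 21 or 22 bases long. In controls it ran miR-409-3p, miR-379-5p, miR-411-5p, miR-543, miR-495-3p, miR-494-3p, miR-323a-3p and miR-127-3p. Only 2 neighbouring pairs in that order had library values that did not overlap: miR-379-5p (7.95 to 8.95 CPM) above miR-411-5p (5.89 to 7.76 CPM), and miR-323a-3p (1.79 to 4.23 CPM) above miR-127-3p (0.352 to 0.994 CPM). With ETBF miR-379-5p came first at 6.68 CPM, followed by miR-409-3p and miR-411-5p, and miR-494-3p moved from the sixth place to the fourth. There the only neighbours without overlap were miR-323a-3p (2.25 to 4.37 CPM) and miR-127-3p (0.215 to 1.03 CPM).

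Shares within the 8 do not depend on how libraries are scaled. MiR-409-3p took 17.2%, 17.6%, 15.5% and 18.3% of the members' counts in ETBF replicates 1 to 4. In control replicates 1 to 4 it took 26.5%, 27.2%, 20.3% and 23.4%. All ETBF shares were below all control shares (17.2% ± 1.19 against 24.4% ± 3.15, SD, n = 4 each). Within the 8, this restates the fall for which miR-409-3p was singled out, and it is given as a description. The share of miR-494-3p was 19.2%, 8.09%, 20.2% and 12.9% with ETBF and 7.69%, 9.96%, 9.09% and 9.29% in controls, with overlap through ETBF replicate 2. MiR-379-5p held 18.5% of all member counts with ETBF and 18.6% in controls.

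**Figure D3:**
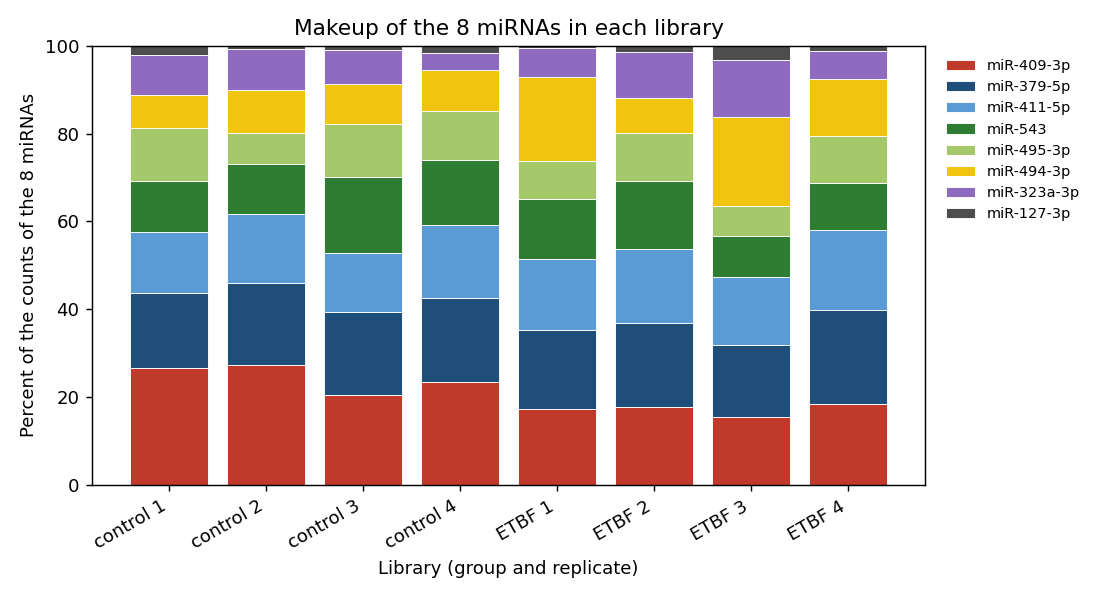
Percent of the summed counts of the 8 miRNAs held by each one, 1 stacked bar per library adding up to the whole. The bottom segment, miR-409-3p, takes 20.3% to 27.2% in controls and 15.5% to 18.3% with ETBF.

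Summed, the 8 came to 35.6 ± 4.77 CPM with ETBF (31.96 to 42.5) and 45.7 ± 1.24 CPM in controls (43.9 to 46.5; SD, n = 4 each), 1.28-fold lower and without overlap. Without miR-409-3p the other 7 came to 29.5 ± 3.94 CPM (26.3 to 35.2) and 34.6 ± 0.946 CPM (33.5 to 35.6), 1.17-fold lower, and the groups overlapped. These sums are given with no test, since the members were chosen with results in view. The median log2 fold change was -0.35 over the 7 tested members and 0.01 over all 480, and 6 of the 7 estimates were below 0 where 49.4% of all 480 were. By the root mean square difference of centred log2 CPM over the 8 libraries, the summed profile was most like those of miR-24-3p (0.075), miR-95-3p (0.094) and miR-1301-3p (0.094) among tested names outside the region.

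None of the rest of the array passed the test. A list of its hairpins gave 85 further names, of which 28 had 0 counts in every library, 50 had counts but were not tested (19 counts at most in a library), and 7 were tested. Of these 7, 0 rose and 0 fell with edgeR, 0 passed with DESeq2 or limma-voom, and 0 had an unadjusted p under 0.05. Their median log2 fold change was 0.12, with 4 estimates above 0 and 3 below.

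MiR-381-3p was the most abundant product of the array, above every member. It had 152, 114, 123 and 74 counts with ETBF and 155, 142, 151 and 169 in controls, and its level was 29.7 ± 2.88 against 27.4 ± 2.83 CPM (SD, n = 4 each; log2 difference 0.12, SE 0.12, 95% interval -0.13 to 0.37, edgeR adjusted p = 0.461). Its interval is the narrowest of the array and leaves out a fall as large as that of miR-409-3p. MiR-369-3p, whose hairpin lies 219 bp from that of miR-409-3p, had 20, 15, 17 and 6 counts with ETBF and 15, 16, 16 and 17 in controls (log2 difference 0.39, SE 0.28, edgeR adjusted p = 0.309).

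MiR-329-3p had the lowest estimate in the array, -0.88 (SE 0.45, edgeR adjusted p = 0.147). Its counts of 12, 4, 8 and 6 with ETBF and 30, 20, 22 and 8 in controls are all multiples of 2, and it has 2 hairpins, so reads may have been counted once per copy and the number of reads overstated. It passed only when control replicate 4 was left out (-1.21, edgeR adjusted p = 0.0194). MiR-376a-3p, also from 2 hairpins with even counts throughout, was at 0.51 (SE 0.49), miR-654-3p at -0.35 (SE 0.26), miR-889-3p at -0.05 (SE 0.25) and miR-382-3p at 0.13 (SE 0.41), and none of these 4 passed.

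**Figure D4:**
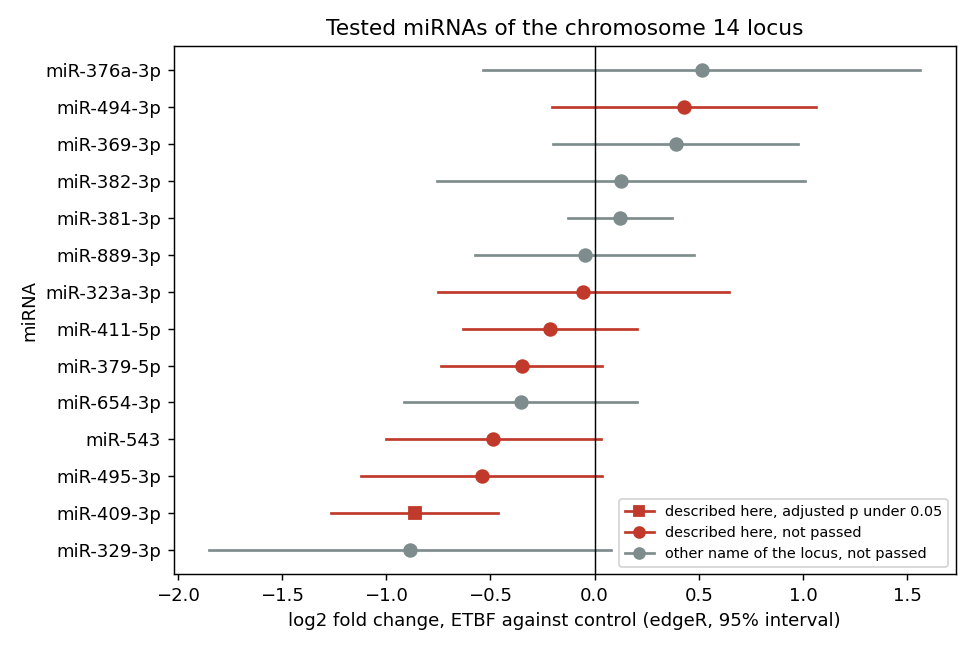
Log2 fold change, ETBF against control, with its 95% interval from edgeR for the 14 tested miRNAs of the region, ordered by size (red, the 7 tested members; grey, the other 7). MiR-409-3p (-0.86) is the only square, the mark for an adjusted p under 0.05, and miR-381-3p (0.12) has the narrowest interval.

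MiR-409-3p was also set against the other 13 tested names of the array inside each library, which leaves library scaling out. It was chosen because it had fallen, so that its ratio to most of them is lower with ETBF follows from the choice, and the ratios are given as a description. The libraries of the 2 groups did not overlap in the ratio to miR-379-5p, miR-411-5p, miR-494-3p, miR-381-3p, miR-889-3p and miR-369-3p (6 of the 13). They overlapped for the other 7, miR-543, miR-495-3p and miR-329-3p among them. The same count was not made over all tested names, so 6 of the 13 is no result about the array. Against miR-379-5p, for example, the ratio of counts was 0.944, 0.923, 0.952 and 0.850 with ETBF and 1.55, 1.45, 1.07 and 1.22 in controls. An exact permutation test of 4 against 4 cannot go below p = 0.0286, which for 6 separated ratios of 13 adjusts to 0.0619. That test cannot settle whether miR-409-3p moved apart from its neighbours. It is too small, and all 13 ratios hold the miRNA that was chosen for its fall.

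The opposite arms of the other members were near or under the floor. MiR-411-3p had 20 counts in each group, miR-379-3p had 7 with ETBF and 15 in controls, and miR-494-5p had 3 and 0. MiR-323a-5p, miR-495-5p and miR-127-5p had 0 counts in all 8 libraries. In each of these hairpins the member described here is thus the arm with more counts.

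**Figure D5:**
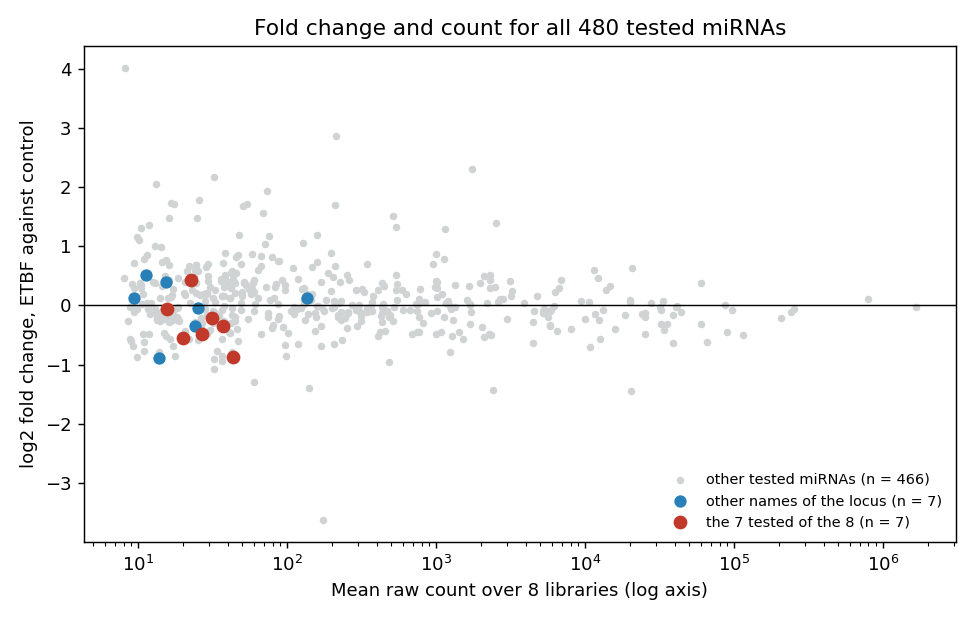
Log2 fold change against mean raw count (log axis) for all 480 tested miRNAs, with the 7 tested members in red and 7 other names of the array in blue. The members sit at the low end of the counts, where 91.7% of the grey names with a mean under 50 counts also lie within 1 log2 unit of 0.

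Other values moved between the same libraries. Over all 480 tested names 19.8% rose and 14.6% fell, the shares to set beside the lists that follow. Of 8 tested epithelial markers 0 rose and 5 fell, and their list summed to 23983 to 26935 CPM with ETBF and 28229 to 30124 CPM in controls. Of 4 tested entries that resemble ribosomal or other RNA, such as miR-7641, 4 rose with edgeR and 3 with DESeq2. The 8 entries of that list summed to 192 to 604 CPM with ETBF and 44.9 to 173 CPM in controls. The highest mean in that list was that of miR-6087, whose groups overlapped (79.1 to 445 CPM with ETBF, 24.3 to 129 CPM in controls). Its 445 CPM came from ETBF replicate 4 alone. Of 5 tested stromal and muscle markers, cell types in which the array is also active, 0 rose and 0 fell with edgeR, 0 passed with DESeq2 or limma-voom, and 0 had an unadjusted p under 0.05. Their list summed to 483 to 508 CPM with ETBF and 511 to 529 CPM in controls, and the stromal miR-214-3p had 1 count in all. In the neuronal list 1 of 3 tested, miR-128-3p, fell. That list summed to 11478 to 14436 CPM with ETBF and 13383 to 15616 CPM in controls, nearly all of it miR-9-5p (means of 8492 and 8652 CPM) and miR-128-3p (4296 and 5966 CPM), while miR-124-3p was at 0 throughout. Of 4 tested blood markers 1 rose, miR-451a, and their list summed to 71.2 to 105 CPM with ETBF and 58.4 to 68.0 CPM in controls. Their part in the result was not tested. Among tested names of 40 to 60% GC, the class of miR-409-3p (54.5%), 16.6% fell, and an offset for GC left miR-409-3p at -0.87 (edgeR adjusted p = 0.00179).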

How the data were processed

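Small RNA from HCT116 cells was sequenced in 8 libraries, 4 with ETBF and 4 controls, grouped by their titles. The authors deposited raw read counts per miRNA name, made with Trimmomatic, FastQC and featureCounts on GRCh37.p5, per the submitters' processing notes. For the versions, the aligner, the miRNA annotation and strandedness: not given in the sources used here.

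Counts of all 2575 names were tested with edgeR 4.0.16 (R 4.3.3) by the quasi-likelihood F test with TMM scaling, the default filter at a minimum count of 10 and a 2-group design. P-values are two-sided and adjusted by Benjamini-Hochberg over all 480 tested names, with a threshold of 0.05. The SE was taken as log2 fold change over root F, and the 95% interval uses it. Ratios of summed counts are ETBF over control, each sum divided by the summed TMM-scaled library totals of its group. They have exact conditional binomial intervals, for counting error only (the counts are of reads, which can be copies of 1 molecule). The fits were also run on simulated data with the same spread beyond counting error for all names. Their accuracy at the members' low counts was not tested separately.

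Members, lists and tests were chosen with earlier results of these data known. The text names the 8 members, their opposite arms, the tested names of the array, names that share a seed, and the 3 most alike profiles. Alternatives were other scalings, filters and tools (limma 3.58.1 voom, DESeq2 1.42.0), thinning, a GC offset (417 of 480 names had a sequence), a replicate block and leaving out each library.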

Additional observations from a re-analysis of the deposited data

Results flagged for a closer look

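In 2 of 18 sets of 4 libraries tested for a stray value (CPM of each member and of their sum, per group), 1 library stood far from the other 3, where chance gives about 1 in 20. Both were of miR-495-3p. ETBF replicate 3 had 2.31 CPM while the remaining ETBF libraries had 3.52 to 3.74. Control replicate 2 had 3.17 CPM while the remaining controls had 5.22 to 5.57. Without ETBF replicate 3 the log2 difference of miR-495-3p was -0.42 (edgeR adjusted p = 0.312), and without control replicate 2 it was -0.71 (edgeR adjusted p = 0.0526).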

How the results depend on the processing

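The fall of miR-409-3p kept its direction and its call in all 18 alternatives that tested it, between -1.08 and -0.80 (adjusted p from 0.000242 to 0.00664). With a minimum count of 50 none of the members was tested and 0 were called. MiR-379-5p, miR-494-3p, miR-495-3p and miR-543 kept their sign and stayed short of the threshold in the same 18. MiR-323a-3p turned positive with total-count scaling (0.0028) and limma-voom (0.032), and ran from -0.29 to 0.067 when 1 library was left out. MiR-411-5p turned to 0.14 after thinning. The log2 ratio of mean CPM of miR-127-3p, -0.24, turned to 0.53 after thinning and ran from -0.82 to 0.085 when 1 library was left out. Thinning was a single random draw, and how its values vary between draws was not tested. Calls lower with ETBF among the other names of the array ran from 0 to 1 when 1 library was left out, the 1 being miR-329-3p without control replicate 4. Same-numbered libraries did not deviate together (r from -0.058 to 0.061), and a replicate block gave 92 higher and 67 lower names against 95 and 70, with miR-409-3p at -0.87 (adjusted p = 0.00307). Depth limits all of these: a mean of 12.5 to 25.8 counts per tested member with ETBF.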
